A study of Mus musculus with 96 samples.

Results

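Klf4 and Myc are 2 of the 96 assays run on single cells of the mouse uterus, and they were chosen by name rather than by their values. The 96 cells came from mice at postnatal day 7, an age at which the uterine epithelium is immature and glands are starting to form. All cells belong to 1 group, with no treatment, genotype or control given: they were freed with type I collagenase, sorted singly for surface CD326 (EpCAM, an epithelial adhesion molecule), preamplified with a 1-step reverse transcription kit and measured by quantitative PCR with the dye EvaGreen on a microfluidic chip. The labels name no strain, sex or animal, so cells of 1 animal cannot be separated from cells of another, and no p-value is given, because cells are not replicates. The measurement is the cycle threshold (Ct), the PCR cycle at which product appears, so a lower Ct means more template, and a gene counts as detected in a cell when its Ct is below 28.

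Klf4 encodes a zinc-finger transcription factor that takes part in the differentiation of several epithelia, the skin and the gut among them, and that restrains cell division in many settings. Myc encodes a basic helix-loop-helix transcription factor that pairs with MAX, binds DNA at E-box motifs and drives cell growth and division; in the mouse uterus it is known as an early target of estrogen. Together with Pou5f1 (OCT4) and Sox2, the pair made up the original factors that return fibroblasts to a pluripotent state, but each is also an ordinary gene of adult epithelia. Both are therefore read here beside epithelial, WNT, steroid receptor, proliferation and pluripotency genes of the same panel.

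In the GRCm38.p6 assembly, Klf4 (gene ID 16600) lies on chromosome 4 at 55527137 to 55532475, on the minus strand, and Myc (gene ID 17869) on chromosome 15 at 61985341 to 61990361. Primers of the 2 assays were not seen here. The RefSeq promoter window of Klf4 (chr4:55532426-55532725, minus strand) is printed 5′ to 3′ with the E-box CACGTG, a motif that MYC can bind, in capitals. It was picked for display after the values below were seen, and no Myc window was available.
Klf4 promoter: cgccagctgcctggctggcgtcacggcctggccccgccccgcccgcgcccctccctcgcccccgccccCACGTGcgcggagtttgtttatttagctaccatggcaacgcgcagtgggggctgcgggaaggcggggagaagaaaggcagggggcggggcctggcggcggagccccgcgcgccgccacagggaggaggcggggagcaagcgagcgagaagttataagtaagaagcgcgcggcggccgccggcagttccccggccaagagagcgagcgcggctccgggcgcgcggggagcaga
The window held CACGTG 1 time, starting 182 bases before the annotated gene start; the motif reads the same on both strands. Of 32851 windows of the same length in the RefSeq table, 2349 (7.15%) held it at least once. GGGTG, the core of a motif that KLF4 can bind, was also searched on both strands and is not in these letters of the Klf4 window, while 57.5% of all windows held it. The Klf4 window had a GC content of 74.3%, against a median of 52.7% over all windows. The windows were not matched for GC content, so the share of 7.15% is not that of windows like this one. The match is a description of the letters in this window and not evidence of binding. An effect of MYC on Klf4 was not tested.

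Both genes were detected in most cells. Klf4 was detected in 85 of 96 cells (88.5%, exact Clopper-Pearson 95% interval 80.4 to 94.1%), and Myc in 85 of 96 as well, so the interval is the same. These intervals cover counting error only. Both genes shared the 11th highest share of the panel, with 4 other assays also at 85 cells: Ctnnb1, Cdh1, Cd164 and Prnp. The median assay was detected in 56.8% of cells.

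The detected values stood well clear of the detection limit. Klf4 Ct ran from 15.8 to 26.0 in its 85 cells, with a median of 18.6, quartiles of 17.4 and 20.1 and a mean of 18.8 ± 1.85 (SD). Myc Ct ran from 12.5 to 23.5, with a median of 16.3, quartiles of 15.1 and 18.2 and a mean of 16.8 ± 2.34 (SD). Only 1 cell had a Klf4 Ct of 24 or above, none had such a Myc Ct, and no cell had a recorded value of 28 or above for either gene, so that the gene was either clearly recorded or absent from the readout. Mki67, the gene of a nuclear protein of cycling cells, shows the opposite case: its 29 detecting cells had a median Ct of 26.2, and 7 further cells had recorded values of 28 or above.

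**Figure D1:**
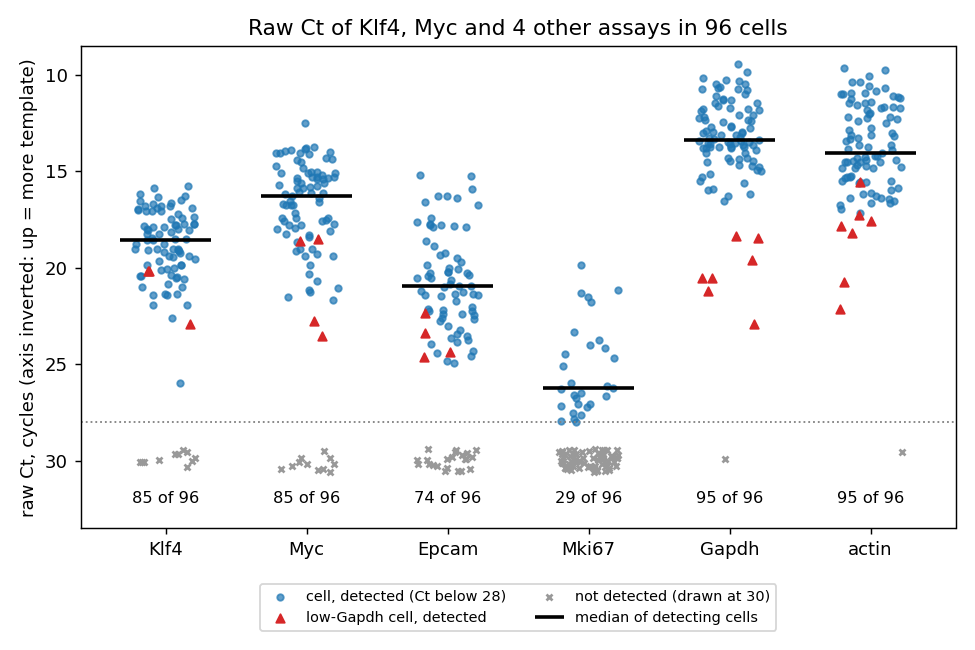
Raw Ct of Klf4, Myc and 4 other assays in each of 96 cells (vertical axis in cycles, inverted so that more template lies higher). Blue points are cells, red triangles are cells with late Gapdh, bars are medians of the detecting cells and crosses are cells without detection. The Klf4 and Myc points lie above the dotted limit of 28 with 1 Klf4 value, at 26.0, near it, whereas Mki67 values crowd against the limit.

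The assays differed in how widely cells spread. Among the 53 assays detected in at least 50% of cells, the SD of Ct had a median of 2.09. Myc had the 17th largest SD of these and Klf4 the 43rd, so Klf4 was among the assays with the narrower spread. Myc had the 7th lowest median Ct of the 53 and Klf4 the 23rd. Since assays can differ in efficiency, the order of Ct between genes holds only roughly.

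Most cells had both genes. They were detected together in 80 cells (83.3%), Klf4 alone in 5, Myc alone in 5 and neither in 6. The product of the 2 shares gives 75.3 cells with both. In the 74 cells with Epcam 69 had both and the product gives 69.1. Of the 22 cells without Epcam 11 had both and the product gives 8.27. In the 80 cells, Myc Ct minus Klf4 Ct had a median of -2.21 cycles and a mean of -2.04 ± 1.85 (SD), with a range of -6.46 to 2.92. Myc had the lower Ct in 69 of the 80 cells and Klf4 in 11.

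The cells without the genes fell into 2 kinds. In 8 cells Gapdh, a glycolytic enzyme gene used as a reference, had a Ct above 18 or no Ct, and these are called low-Gapdh cells. Of these 8, 5 lacked Klf4 and 4 lacked Myc, and 4 lacked both. Cell 67 is 1 of them, and its first 71 assays in the table are all empty, which include Klf4 (row 29) and Myc (row 41), so its missing values are not evidence about these genes. In the other 88 cells Klf4 was detected in 82 (93.2%) and Myc in 81 (92.0%), with both in 77, Klf4 alone in 5, Myc alone in 4 and neither in 2. There the product of the shares gives 75.5 cells with both.

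A few cells lacked 1 gene although the rest of their readout was rich. Cell 72 detected 62 assays, with a Gapdh Ct of 10.7 and a Myc Ct of 13.8, and had no Klf4. Cell 81 detected 51 assays and had a Myc Ct of 15.5 without Klf4. In the other direction, cell 82 detected 55 assays and had a Klf4 Ct of 16.7 without Myc, and cell 83 detected 56 assays with a Klf4 Ct of 21.3 and no Myc. Cell 9 had a Gapdh Ct of 11.3 and 50 detected assays, no Myc, and the latest Klf4 value of all cells, 26.0. Whether these gaps are missing transcripts or failed reactions cannot be told from 1 reaction per cell and assay.

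Higher shares of the cells with Epcam than of those without it had Klf4 and Myc. Most assays gave the same direction: 70 of 75 detected in 10% to 90% of cells, for each gene. Epcam had the 9th largest difference of the 75 for Klf4, 38.2 points, where the median was 15.6. For Myc it had the 6th largest, 32.3 points, where the median was 13.5. Whether epithelial identity plays a part was not tested. Of the 74 cells with Epcam transcript, 72 detected Klf4 (97.3%) and 71 detected Myc (95.9%), and none lacked both. Of the 22 cells without Epcam, 13 detected Klf4 (59.1%) and 14 detected Myc (63.6%), and 6 lacked both. Outside the low-Gapdh cells the shares were 98.6% with Epcam (69 of 70 cells) and 72.2% without (13 of 18) for Klf4, and 95.7% (67 of 70) and 77.8% (14 of 18) for Myc. The detecting cells also overlapped widely in Ct. Klf4 Ct had a median of 18.5 in the 72 detecting cells with Epcam (15.8 to 22.9) and of 19.7 in the 13 without it (16.8 to 26.0). Myc Ct had a median of 16.1 in the 71 detecting cells with Epcam (12.5 to 23.5) and of 17.7 in the 14 without it (13.9 to 21.5).

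Gapdh followed the 2 genes to different degrees. Over the 85 cells that detected Klf4 and Gapdh, their Ct values had a Spearman rho of 0.20 and a Pearson r of 0.20, and an r of 0.10 without the 2 cells farthest from the median Gapdh Ct. Over the 85 cells that detected Myc and Gapdh, rho was 0.51 and r 0.56, and r was 0.44 without the 2 farthest cells. Over the 65 assays that shared at least 30 cells with Gapdh the median rho was 0.58. Klf4 ranked 62nd of the 65 and Myc 40th, so 3 assays (Pecam1, h2b and Gja1) followed Gapdh less closely than Klf4. All these Ct values share, within a cell, its total RNA and its preamplification.

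Without the low-Gapdh cells the relation of Klf4 to Gapdh was close to 0. The rank correlation was 0.14 and r 0.08 in 82 cells, and r was 0.02 without the 2 farthest cells. That of Myc was 0.44 and 0.42 in 81 cells, and r was 0.40 without the 2 farthest. Klf4 was then 64th of 65 assays, above only Pecam1 at -0.01, and Myc 47th, where the median was 0.57.

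**Figure D2:**
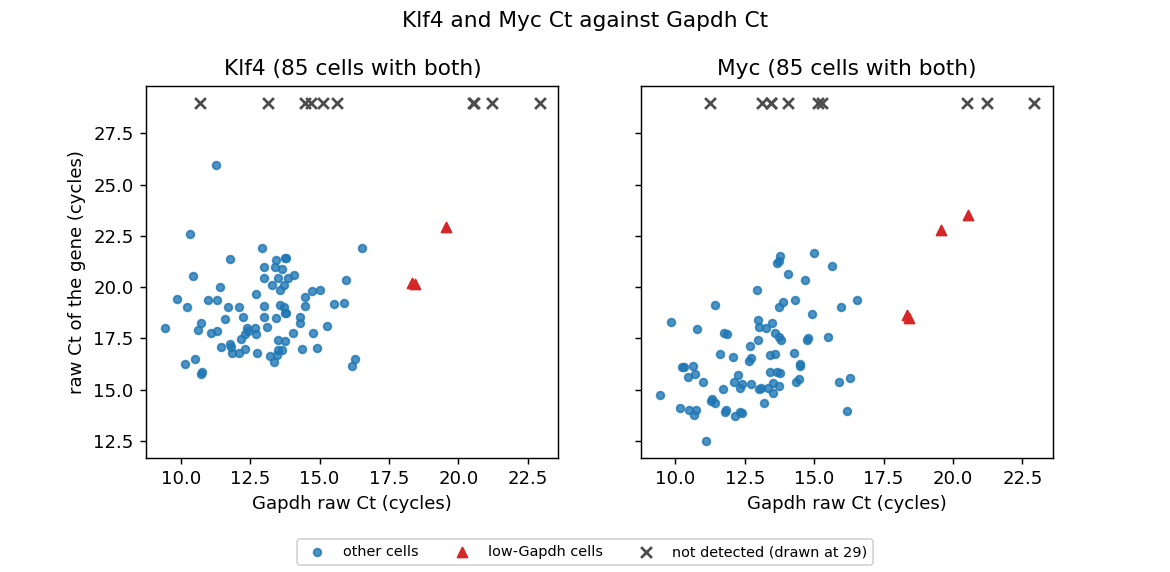
Raw Ct of Klf4 (left) and Myc (right) against raw Ct of Gapdh in the same cell, both in cycles, with 85 cells each. Triangles are the low-Gapdh cells and crosses at 29 are cells where the gene was not detected. Between Gapdh Ct values of 10 and 16 the Klf4 points form a level band (rho = 0.20 over all 85 cells), while the Myc points climb (rho = 0.51).

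The other reference genes gave the same order. With actin, Klf4 had a rho of 0.30 (r = 0.30, and 0.20 without the 2 farthest cells) and Myc a rho of 0.64 (r = 0.71 and 0.63), over 85 cells each. With Hprt, a purine salvage gene, Klf4 had a rho of 0.16 over 60 cells (r = 0.15) and Myc a rho of 0.46 over 61 cells (r = 0.53). Detection itself depended on Gapdh equally for both genes: of the 48 cells with the lower Gapdh Ct, 46 detected each gene (95.8%), and of the other 48, 39 did (81.2%). This difference of 14.6 percentage points compares with a median of 18.8 over all 96 assays.

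Klf4 Ct varied with Myc Ct. Over the 80 cells with both, rho was 0.55 and r 0.56, and r was 0.54 without the 2 cells farthest from the median Klf4 Ct. Of the 20 cells with the lowest Klf4 Ct, 10 were among the 20 with the lowest Myc Ct and 1 was among the 20 with the highest. Of the 20 cells with the highest Klf4 Ct, 12 were among the 20 with the highest Myc Ct and none among the 20 with the lowest. The product of the shares gives 5 for each of these overlaps.

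The relation was also found with low-Gapdh cells left out and with Epcam required. It was 0.52 (r = 0.50) in the 77 cells outside the low-Gapdh group and 0.56 (r = 0.56) in the 69 cells with Epcam. With the rank of Gapdh Ct held (partial Spearman rho), it was 0.51 in 80 cells, 0.499 in the 77 cells and 0.52 in the 69. Of the 63 cells that detected all 3 reference genes, 59 had both, and in these it was 0.46, and 0.43 with Gapdh held.

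**Figure D3:**
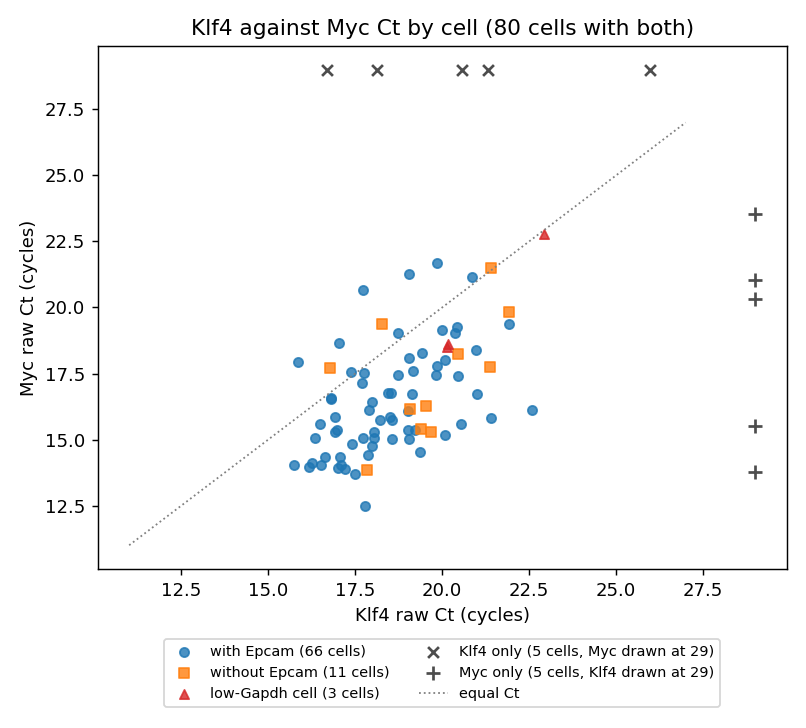
Myc raw Ct against Klf4 raw Ct in cycles for 80 cells with both genes, by Epcam detection (blue circles with, orange squares without) and low-Gapdh group (red triangles). Crosses and plus signs are the 5 cells with Klf4 only and the 5 with Myc only, drawn at 29. The points rise together (rho = 0.55) and 69 of 80 lie below the dotted line of equal Ct.

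Over all cells, Myc had the highest rho of any assay with Klf4. Every other assay that shared at least 30 cells with Klf4 was compared with it over the cells that detect both, which gave 64 assays. Only 1 of them, Myc, reached a rho of 0.5 with Klf4 (1.56%). Among all 1828 pairs of assays with at least 30 shared cells, 482 reached it (26.4%), and their median rho was 0.34. The median over the 64 assays was 0.07 for Klf4, with 23 below 0 and none at -0.5 or below, and 1 of the 67 assays with such values had a lower median. With Gapdh held, Myc was again the only one of 63 assays at 0.5 or above (1.59%). There 66 of 1761 pairs reached it (3.75%), with a median of 0.04. Without the low-Gapdh cells no assay reached 0.5 with Gapdh held, although Myc was still the highest for Klf4, at 0.499.

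Cd9 came before Myc under several other settings. In the cells with all 3 reference genes, Cd9 was at 0.58 and sma at 0.48 with Klf4, so Myc, at 0.46, was the 3rd of 58 assays, and it was also 3rd with Gapdh held, where Cd9 was at 0.57 and sma at 0.46. On the deposited folds Cd9 was at 0.63 and Myc at 0.56, and with undetected cells set to the detection limit they were at 0.62 and 0.57. Without the 10% of cells with the most assays, Myc was 1st on the raw scale at 0.56, and with Gapdh held Cd9 was at 0.53 and Myc at 0.52.

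The assays next to Myc for Klf4 were Cd9, sma, Cdh1 and Cd44. Cd9, which encodes a tetraspanin of the cell surface, had a rho of 0.49 with Klf4 (76 cells, r = 0.42, and 0.57 without the 2 cells farthest in Klf4). The assay named sma, read as smooth muscle actin, had 0.42 (66 cells, r = 0.43). Cdh1, the E-cadherin gene of adherens junctions, had 0.41 (81 cells, r = 0.38), and Cd44, a hyaluronan receptor gene, 0.33 (73 cells, r = 0.26). With Gapdh held, Cd9 was at 0.48, sma at 0.39, Cdh1 at 0.37 and Krt18, a keratin of simple epithelium, at 0.27.

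Genes at the low end had weaker relations of the opposite sign. The lowest for Klf4 were Hoxa13, a homeobox gene of the caudal reproductive tract (rho = -0.37, r = -0.32, 35 cells), Cd34, a surface sialomucin gene (rho = -0.30, r = -0.36, 48 cells), and Sall4, a zinc-finger gene of pluripotent cells (rho = -0.20, r = -0.20, 51 cells). Without the 2 cells farthest in Klf4, r was -0.25, -0.20 and -0.08. With Gapdh held, Hoxa13 was at -0.41, Prom1, a gene of an apical membrane glycoprotein, at -0.40 and Cd34 at -0.37. These rest on few cells, and Prom1 was at -0.16 on the raw scale.

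Myc had more partners on the raw scale. Of 64 assays, 11 reached a rho of 0.5 with Myc (17.2%), below the 26.4% over all pairs, and the median was 0.28. Of the 67 assays, 19 had a lower median. The highest were actin at 0.64 (85 cells, r = 0.71), Cdh1 at 0.62 (80 cells, r = 0.63), Igf1r, the receptor gene of insulin-like growth factor 1, at 0.58 (81 cells, r = 0.55), Cd44 at 0.56 (73 cells, r = 0.57) and Cd9 at 0.56 (73 cells, r = 0.53). Klf4 was the 6th. The other 5 of the 11 were Nt5e, a surface ectonucleotidase gene, at 0.54, the integrin genes Itga6 and Itga3 at 0.53 and 0.52, Krt18 at 0.53 and Gapdh at 0.51.

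With Gapdh held, Klf4 had the highest rho with Myc as well. It was the only one of 63 assays at 0.5 or above (1.59%), at 0.51, followed by Cdh1 at 0.48, actin at 0.45, Cd9 at 0.44 and Igf1r at 0.42. Over all cells Klf4 and Myc were thus each the other's highest assay with Gapdh held, 1 of 12 such pairs in the panel, and 62 of the 1761 pairs had a higher value than theirs. The 11 others ran from 0.72 for Cd9 with Cdh1 to 0.43 for Bmi1 with Pecam1. With actin held as well, Klf4 and Myc were at 0.46, Klf4 stayed highest for Myc, and Cd9, at 0.48, was above Myc for Klf4. The pair was also not each other's highest in the cells with all 3 reference genes, where Myc was 3rd for Klf4 and Klf4 2nd for Myc, or without the 10% of cells with the most assays, where Myc was 2nd for Klf4.

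Some assays had a positive rho with both Klf4 and Myc. With Gapdh held, 3 of the 62 assays with values for both genes had a rho of at least 0.3 with each: Cd9, Cdh1 and sma. With actin held as well, each of the 3 was below 0.3 with at least 1 gene. Cd9 was then at 0.48 with Klf4 and 0.295 with Myc, Cdh1 at 0.28 and 0.32, and sma at 0.296 and 0.14. The share of all pairs at 0.3 was not computed, so whether 3 assays is many or few is not known. Cd9 and Cdh1 were also at 0.72 with each other with Gapdh held, so they do not count as separate partners. On the raw scale 59 of 63 assays had a higher rho with Myc than with Klf4, and with Gapdh held 41 of 62 did. Gja1, which encodes the gap junction protein connexin 43, was split between them, at 0.17 with Klf4 (59 cells) and -0.18 with Myc (56 cells), and at 0.15 and -0.27 with Gapdh held. Wnt7a, a WNT ligand gene of the uterine epithelium, was at -0.01 with Klf4 and 0.46 with Myc over 50 cells each, and at -0.29 and 0.18 with Gapdh held. No test of these differences was made. The lowest for Myc were Gja1, the histone assay h2b at -0.17 (38 cells) and Sall4 at -0.13 (52 cells). With Gapdh held they were Sall4 at -0.48, Cd34 at -0.38 (45 cells) and Enpep, an aminopeptidase gene, at -0.37 (58 cells). On the raw scale Cd34 was at -0.10 and Enpep at 0.06. With the number of detected assays held, Sall4, Cd34 and Enpep were at -0.38, -0.26 and -0.14.

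**Figure D4:**
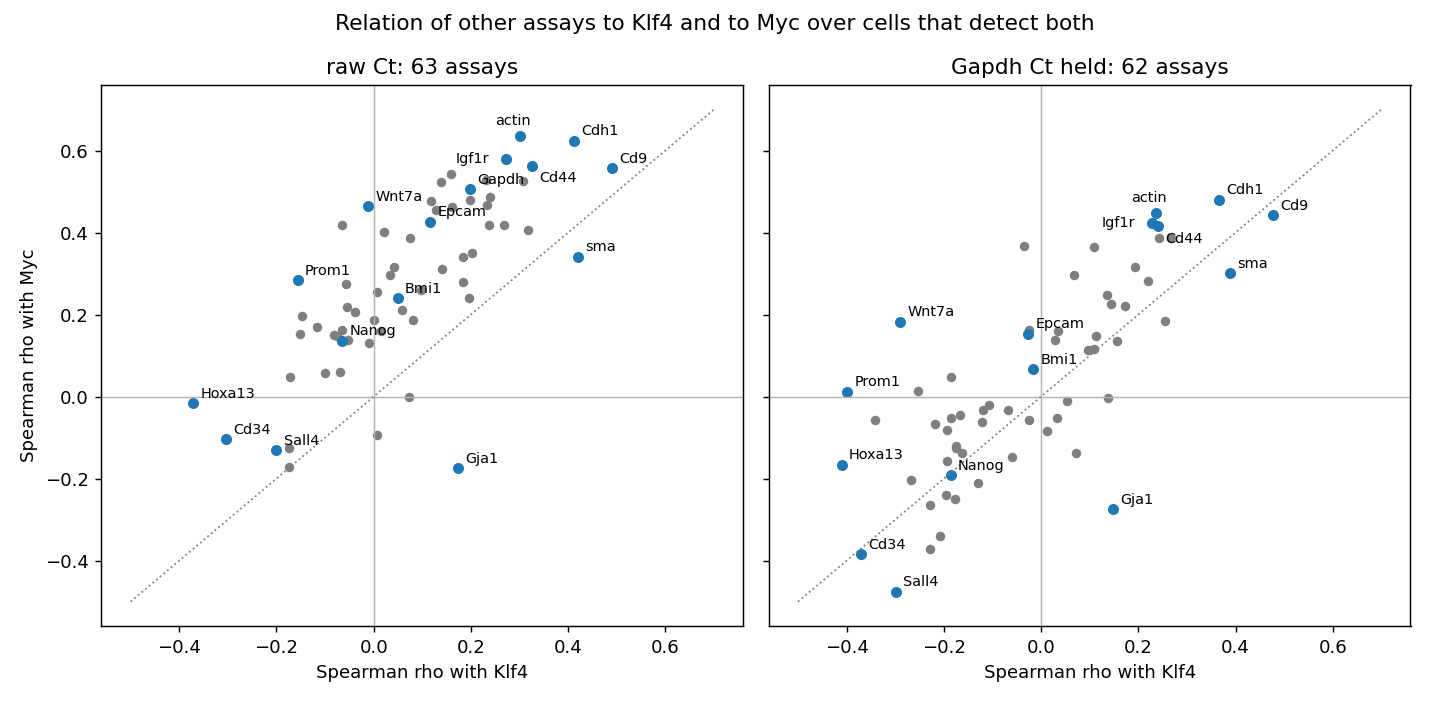
Spearman rho of other assays with Klf4 (horizontal axis) and with Myc (vertical axis), without unit, for raw Ct (left, 63 assays) and with Gapdh Ct held (right, 62 assays); each point is 1 assay and the dotted line marks equal values. On the left 59 points lie above the line, and on the right the cloud centres near 0 with Cd9, Cdh1 and sma at 0.3 or above on both axes.

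As a list, epithelial genes had a higher median rho than all assays with both transcription factors, but its members differed widely. All 6 epithelial markers (Epcam, Cdh1, Krt8, Krt18, Krt19 and Cd24a) had a raw rho above the median of all assays with Klf4 and with Myc, and with Gapdh held 5 did with Klf4 and 6 with Myc. Their median rho was 0.27 with Klf4, against 0.07 over all assays, and 0.44 with Myc, against 0.28. With Gapdh held the medians were 0.21 and 0.17, against -0.03 and -0.004. None of the 6 reached 0.5 with Klf4, beside 1.56% of all assays, and 2, Cdh1 and Krt18, did with Myc, beside 17.2%. Epcam, the sorted antigen, was at 0.12 with Klf4 (72 cells) and 0.43 with Myc (71 cells), and Krt8 at 0.13 and 0.46 (79 cells each). With Klf4 they ranked 28th and 26th of 64 assays. With Gapdh held, Epcam was at -0.03 with Klf4, below the median of all assays, and at 0.15 with Myc, and Krt8 was at 0.03 and 0.14. The 3 stromal markers with values (sma, Nt5e and Mme) had medians of 0.11 with Klf4 and 0.30 with Myc when Gapdh was held, of which the second is above that of the epithelial list.

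Of the WNT genes with enough shared cells, 2 lay above the median of all assays with each transcription factor and the others below it. Of 10 measured WNT genes, 7 shared at least 30 cells with each gene, and none reached 0.5. Their median rho was -0.01 with Klf4, against 0.07 over all assays, and 0.22 with Myc, against 0.28. With Gapdh held the medians were -0.16 and -0.06, against -0.03 and -0.004. The 2 above the median were Ctnnb1 and Fzd7 with Klf4, and Ctnnb1 and Wnt7a, at 0.46, with Myc. Myc is known as a target of beta-catenin in the gut. Ctnnb1, the beta-catenin gene, was the highest of the 7 for both, at 0.20 with Klf4 (81 cells) and 0.48 with Myc (80 cells), and at 0.13 and 0.25 with Gapdh held. The receptor gene Fzd7 was at 0.20 and 0.24, the R-spondin receptor gene Lgr4 at -0.06 and 0.22, and its relative Lgr6 at -0.07 and 0.06. Of the 20 cells with Lgr5, 19 detected Klf4 and 19 detected Myc.

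The other factors of reprogramming were much rarer than Klf4 and Myc. Sox2 was detected in 26 cells, of which 23 had both Klf4 and Myc, and Pou5f1 in 7 cells, all with both. All 4 genes were detected together in 1 cell. Of the 6 measured genes of the set pluripotency list, Nanog and Sall4 shared at least 30 cells with each gene. Nanog, a homeobox gene of pluripotent cells, was at -0.06 with Klf4 (73 cells) and 0.14 with Myc (71 cells), and at -0.19 with each when Gapdh was held. Sall4 is among the lowest for both, as given above. Dppa2 and Tdgf1, which are not on the list, were at 0.01 and -0.12 with Klf4 (76 and 64 cells). With Myc they were at 0.16 and 0.17 (77 and 62 cells). Over the 24 and 23 shared cells, Sox2 had a rho of 0.13 with Klf4 (r = 0.04) and 0.39 with Myc (r = 0.30).

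Proliferation and steroid receptor genes showed no close tie to either gene. Of the 29 cells with Mki67, 27 detected Klf4 and 26 detected Myc. Outside the low-Gapdh cells Klf4 was detected in 93.1% of cells with Mki67 and 93.2% of those without, and Myc in 89.7% and 93.2%. Over 27 shared cells Mki67 Ct had a rho of -0.09 with Klf4 (r = -0.11), and over 26 shared cells -0.15 with Myc (r = -0.17). The median Mki67 Ct of 26.2 lay near the limit of 28, so these Mki67 values say little about proliferation. Esr1, the estrogen receptor alpha gene, was at 0.14 with Klf4 (69 cells, r = 0.01) and 0.31 with Myc (68 cells, r = 0.29), and at 0.11 and 0.12 with Gapdh held. Pgr, the progesterone receptor gene, was at -0.15 with Klf4 (53 cells) and 0.15 with Myc (54 cells). Myc was detected in 98.2% of the 55 cells with Pgr and 81.8% of the 33 without it, outside the low-Gapdh cells. Klf4 was detected in 96.4% and 87.9% of the same cells. For Esr1 the shares were 93.1% and 87.5% for Myc and 94.4% and 87.5% for Klf4. The difference by Pgr was 16.4 points for Myc and 8.48 for Klf4, and that by Esr1 was 5.56 and 6.94. The median difference over 73 assays was 5.56 points for Myc and 7.92 for Klf4.

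The remaining lists held few genes with enough shared cells. The Polycomb genes Bmi1 and Ezh2 were at 0.05 and 0.03 with Klf4 and at 0.24 and 0.30 with Myc. Of the growth factor receptor genes, Igf1r was at 0.27 with Klf4, and Kit, the stem cell factor receptor, at -0.05, Insr at -0.08 and Igf2r at -0.17. With Myc the last 3 were at 0.14, 0.15 and 0.05. Of the duct regulators, Pax2, Emx2 and Hoxa13 were at 0.08, -0.07 and -0.37 with Klf4 and at 0.19, 0.16 and -0.02 with Myc. With Gapdh held these 3 were at -0.02, -0.34 and -0.41 with Klf4 and at -0.06, -0.06 and -0.17 with Myc. Their medians were then -0.34 with Klf4 and -0.06 with Myc, against -0.03 and -0.004 over all assays. Sox9, a transcription factor gene of gland buds, was at 0.02 with Klf4 (36 cells) and 0.40 with Myc (37 cells), and at -0.03 and 0.16 with Gapdh held. Foxa2, a gland transcription factor gene, was detected in 7 cells, of which 6 had Klf4 and 6 had Myc.

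Markers listed for other cell types did not move as 1 block with Klf4 or Myc. Of 3 endothelial markers, Pecam1 and Cd34 had enough shared cells and a median rho of -0.15 with Klf4 and -0.10 with Myc. The 2 differed with Klf4, where Pecam1 was at 0.007 and Cd34 at -0.30, and were at -0.09 and -0.10 with Myc. Pecam1 was detected in 93 of the 96 cells, at a median Ct of 15.3, so its detection does not single out endothelial cells here. Ptprc, the only immune marker, was at 0.08 with Klf4 (56 cells) and 0.39 with Myc (53 cells), and at 0.03 and -0.05 with Gapdh held. Of 7 stromal markers, sma, Nt5e and Mme had enough shared cells and a median of 0.16 with Klf4 and 0.34 with Myc, and of 0.11 and 0.30 with Gapdh held. Vim, the intermediate filament gene of mesenchyme, was detected in 7 cells, of which 6 had Klf4 and 5 had Myc. The part of other cell types in these relations was not tested.

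Detection of Klf4 and Myc also depended on other assays. Among 75 assays detected in 10% to 90% of cells, 70 had a higher share of Klf4 in the cells with the assay than in the cells without it, by a median of 15.6 percentage points, and 70 had a higher share of Myc, by a median of 13.5 points. Outside the low-Gapdh cells the medians were 7.92 and 5.56 points over 73 assays with at least 5 cells on each side, of which 60 had a higher share of Klf4 and 13 a lower one, and 58 a higher share of Myc and 15 a lower one. The difference there was largest for Cd9 with Klf4: 98.7% of the 75 cells with Cd9 and 61.5% of the 13 without it detected Klf4. For Myc it was Cdh1 and Klf4, each with 93.9% of 82 cells with the gene and 66.7% of 6 cells without it. Pgr gave 98.2% of 55 cells and 81.8% of 33 cells for Myc. In the opposite direction Abcg2, a drug efflux transporter gene, gave 83.3% of 24 cells and 96.9% of 64 cells for Klf4, and Kit gave 90.9% of 77 cells and 100% of 11 cells for Myc.

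**Figure D5:**
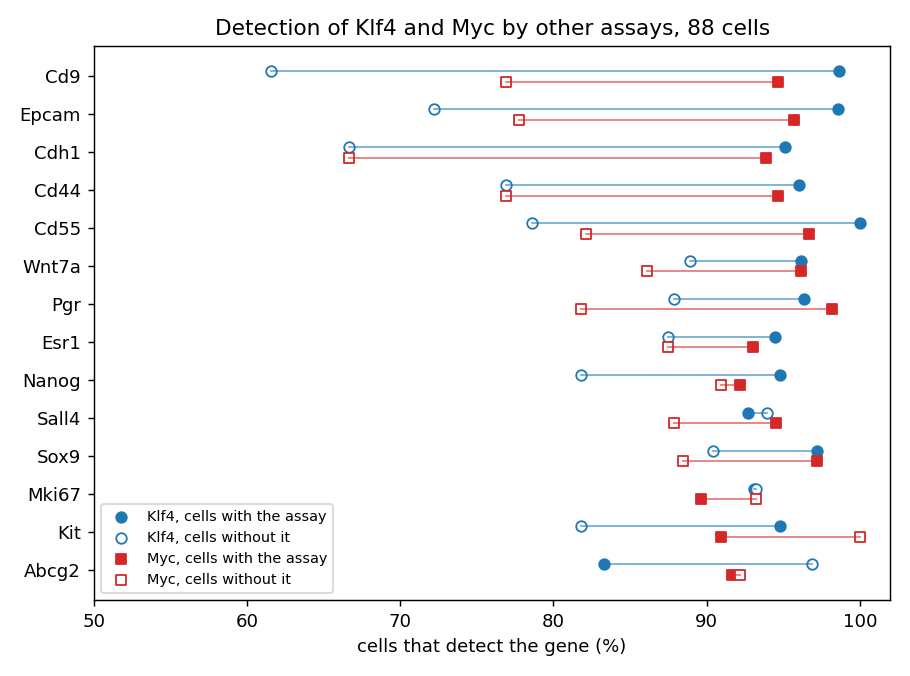
Percentage of cells that detect Klf4 (blue circles) or Myc (red squares) among cells with (filled) and without (open) each of 14 other assays, without the 8 low-Gapdh cells; the axis starts at 50%. The assays were picked after their values were seen. Cd9, Epcam and Cdh1 have wide gaps with the filled marker to the right, while the Mki67 markers lie close together for Klf4, at 93.1% and 93.2%.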

How the data were processed

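The deposited table holds a score per assay and cell, the raw cycle threshold (Ct) per the file headers, with 40 where no Ct was obtained. A second deposited table gives each fold change as a ratio to cell 1 after scaling by a housekeeping gene, per the file headers; recomputing it from Ct with Gapdh as that gene matched within 6.55e-06 on the log2 scale. Reverse transcription, preamplification and the chip are per the labels' protocols, and the threshold settings were not stated there. Columns were matched to cells by number. Of the 96 assays, 92 were named as RefSeq symbols, by their names, synonyms, CD designations or protein names, and 4 keep the file's name; cmyc was read as Myc. No 2 cells shared an identical recorded Ct. The cells detected 9 to 78 assays, with a median of 54.

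Relations are Spearman rho and Pearson r of raw Ct over cells that detect both assays, at least 30 of them (Sox2 and Mki67 are given over 23 to 27), and partial Spearman rho with Gapdh Ct held, computed for all pairs. The code of the pair statistics was tested on simulated data with far more cells and no missing values. That test does not show how fully holding Gapdh removes what the assays of a cell share here. The named assays are, for each gene, the 5 highest and 3 lowest in rho on either scale, the reference genes and members of set lists. Abcg2, Gja1 beside Klf4, Nt5e, Itga6 and Itga3, the detection examples and the single cells were chosen after their values were seen. The genes and lists were chosen with earlier results of these data known. No cells were removed as doublets. Python 3.11.15, numpy 2.4.6, pandas 2.3.3, scipy 1.17.1 and matplotlib 3.10.9 were used.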

Additional observations from a re-analysis of the deposited data

How the results depend on the processing

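Limits: each assay was run once per cell, primers were not checked, and depth differs between cells, so a missing value is not shown to be a missing transcript. Under the alternatives, 109 values were recomputed for the main results: 85 stayed within their counting interval, 1 SD, 0.1 for a rho or 1.5 times for a count, and 24 moved; none changed sign among those with a rho of at least 0.5. Part of the 85 could hardly move. Only 1 Klf4 value and no Myc value was 24 or above, so other Ct limits left the shares, the medians and the rho of the pair nearly fixed. The SD allowed for a median was 1.85 cycles for Klf4 and 2.34 for Myc, which is wide. The count of 85 is therefore not a measure of robustness. Shares moved with the cells kept. Klf4 was at 95.2% and Myc at 96.8%, with both at 93.7%, in the 63 cells that detected all 3 reference genes. They were at 97.3%, 95.9% and 93.2% in the 74 cells with Epcam, and Klf4 was at 95.3% without the 10% of cells with the fewest assays. Minus Gapdh, the median Ct was 5.39 for Klf4 and 3.29 for Myc, which follows from the scale. The rho of Klf4 with Gapdh was 0.34 with undetected cells at the limit, and with actin in place of Gapdh the values were 0.30 for Klf4 and 0.64 for Myc.

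The number of assays at a rho of 0.5 with Klf4, 1 as reported, was 2 with a Ct limit of 24, in cells with Epcam, without the 10% of cells with the most assays and with undetected cells at the limit. It was 5 on the log2 deposited folds, which share the Gapdh value of each cell, and 0 with Gapdh and actin held, an alternative added after the data were seen. For Myc, 11 as reported, it was 3 in cells with all reference genes, 1 with Gapdh held, 1 with the number of detected assays held, 5 on the deposited folds, 20 with undetected cells at the limit and 0 with Gapdh and actin held. Of 95 values of the named pairs, 76 moved by at most 0.1, and 2 took the other sign, from a rho of at most 0.06 in size. No paired analysis was possible because all cells form 1 group.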
